A study of Mus musculus with 8 samples.

Results

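The 10 genes described here encode parts of the kinase complex mTORC1, proteins of amino acid sensing upstream of it, and the transcription factors TFEB and TFE3 that it controls. They were examined in mouse macrophages deprived of serine and glycine. The genes, Mtor, Rptor, Rraga, Rragc, Rragd, Flcn, Fnip1, Depdc5, Tfeb and Tfe3, were taken by symbol from the deposited table of 17492 genes, and each matched 1 row. The cells were bone marrow-derived macrophages of C57BL/6 mice, grown in culture from marrow precursors. RNA was sequenced from 4 libraries of cells in medium lacking serine and glycine and from 4 control libraries of cells in normal medium. No genetic change or other agent is named for either group. The labels do not give the animals' age, the duration of deprivation or any stimulus, and do not say whether libraries came from separate cultures. The tests thus rest on the variation among these 8 libraries, and part or all of it may be technical.

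mTORC1 is a protein kinase complex that promotes protein synthesis and restrains autophagy when nutrients are plentiful. Amino acids bring it to the lysosomal surface through the Rag GTPases, which work as pairs of RagA or RagB with RagC or RagD. GATOR1, which contains DEPDC5, switches RagA and RagB off, and folliculin with its partner FNIP1 or FNIP2 acts on RagC and RagD. TFEB and TFE3 are held in the cytosol when phosphorylated under the control of RagC and RagD, and otherwise enter the nucleus and switch on lysosomal genes. In macrophages, which degrade large amounts of engulfed material, these factors are known as regulators of lysosome content and of inflammatory genes.

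Library totals lay between 17565291 and 18201599 estimated counts, and the 10 genes had between 390 and 5010 counts per library. All passed the filter on low counts. The summed level of 7 macrophage markers was 18400 to 18900 CPM (counts scaled to a common library total) in control libraries and 18400 to 18700 CPM without serine and glycine. Single markers moved in opposite directions within that sum: Csf1r (log2 change 0.41), Cd68 (0.29), Mertk (0.28) and Lyz2 (0.13) rose, and Itgam (-0.61), Adgre1 (-0.25) and Fcgr1 (-0.14) fell. T cell and natural killer cell markers did not exceed 0.11 CPM in any library, with 2 of 4 in the table. The 4 B cell markers summed to 43.4 to 51.1 CPM in control and 32.1 to 38.9 CPM in deprived libraries, nearly all from Cd79b. Neutrophil markers (6 of 6 in the table) summed to 0.772 to 1.17 CPM in control and 1.89 to 2.34 CPM in deprived libraries. Most of that sum was S100a8, with means of 0.755 CPM in control and 1.87 CPM in deprived libraries. S100a9 stood at 0.167 and 0.182 CPM. The 3 dendritic cell markers in the table reached 0.841 CPM and the 5 stromal markers 1.54 CPM. Erythroid, mast cell and megakaryocyte markers (5 of 7 in the table) summed to 14.5 to 16.0 and 14.2 to 15.5 CPM, nearly all from Pf4. The part of these differences in the results below was not tested.

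Without serine and glycine, transcripts of the small GTPase genes Rragd and Rraga rose, and those of Mtor, Depdc5, Flcn and Tfe3 fell. Rragd had the largest change, 1.32-fold, and the fitted change of the other 5 lay between -9.69% (Mtor) and 11.2% (Rraga). Rptor, Rragc, Fnip1 and Tfeb did not pass the threshold. In the quasi-likelihood test of edgeR with Benjamini-Hochberg adjustment, 6 of the 10 genes passed the threshold of 0.05, with 2 higher and 4 lower. Once the trend of each library with transcript length was taken out, 4 were higher and 2 lower. Over all 11700 genes tested, 33.2% passed, 15.9% higher and 17.3% lower. In CPM, the groups did not overlap for Rragd and Rraga, which were higher, and for Mtor, Depdc5 and Tfe3, which were lower. Among all tested genes 14.5% stood apart in CPM in the higher and 16.2% in the lower direction. In TPM, which is also scaled by transcript length, Mtor overlapped, and Flcn, which overlapped in CPM, stood apart. The median log2 change of the 10 genes was -0.0086, against 0.0074 for all genes. In bulk RNA, fewer expressing cells and less RNA per cell cannot be told apart.

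**Figure D1:**
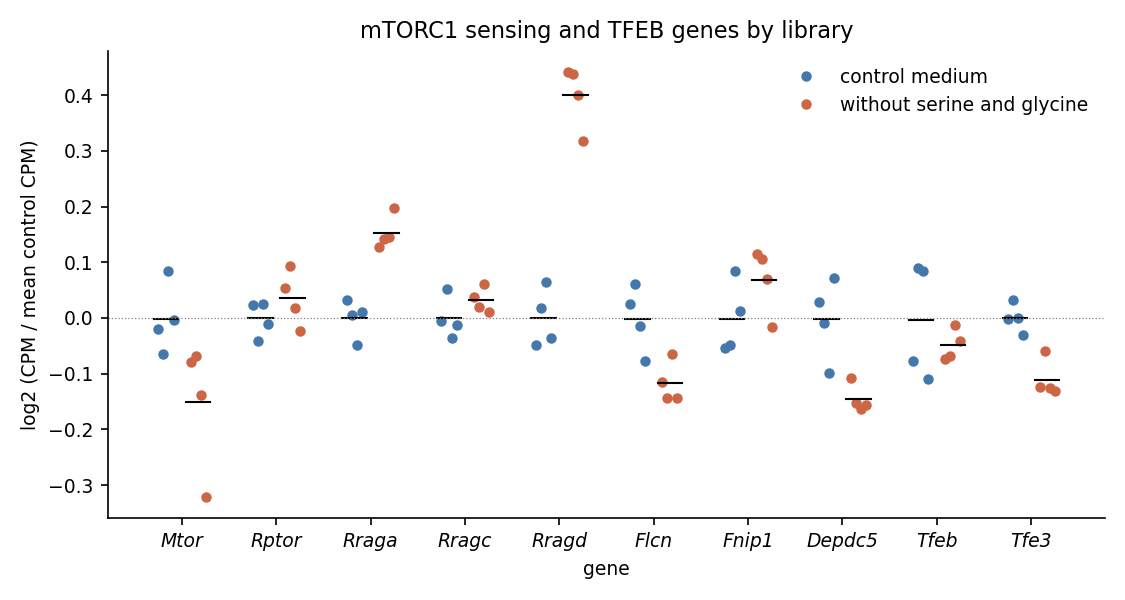
Level of each gene in each library, as log2 of CPM over the mean control CPM; points are libraries (4 per group) and bars are group means. All 4 deprived libraries lie above all controls for Rragd and Rraga, and below them for Mtor, Depdc5 and Tfe3.

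Rragd encodes RagD, which pairs with RagA or RagB and is itself a reported target gene of TFEB and TFE3. Its level was 21.8, 22.8, 23.6 and 22.0 CPM in control replicates 1 to 4 and 30.7, 30.6, 29.8 and 28.1 CPM without serine and glycine. Every deprived library lay above every control. Means (± SD, n = 4) were 22.6 ± 0.831 CPM in control and 29.8 ± 1.18 CPM in deprived libraries, a log2 change of 0.40 (SE 0.053; edgeR adjusted p = 3.7e-08). Of all genes tested, 7.94% had a larger change in either direction. On GRCm38.p6, Rragd (Entrez 52187) lies on the plus strand of chromosome 4 at 32982998 to 33022180, and like the other 9 genes it is annotated as protein-coding. The 100 bases before its start (GRCm38.p6, chr4:32982898-32982997, plus strand, from RefSeq) are shown because this gene changed most. They are 68.0% G or C:

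Rragd: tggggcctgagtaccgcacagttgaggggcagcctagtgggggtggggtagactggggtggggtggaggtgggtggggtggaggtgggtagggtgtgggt

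Rragc (Entrez 54170, chromosome 4, 123917433 to 123936997, plus strand) encodes RagC, the paralog of RagD. Its level was 265.6, 276.3, 259.9 and 264.1 CPM in control and 273.6, 270.0, 278.0 and 268.5 CPM in deprived libraries, and the groups overlapped. The log2 change was 0.032 with a 95% interval of -0.021 to 0.086 (edgeR adjusted p = 0.377). An exon of 4930535I16Rik, a gene on the opposite strand that has no row in the table, overlaps Rragc by 264 bases, and strand-specific counting is not stated in the sources used here. In TPM, which is scaled by transcript length, Rragc exceeded Rragd by a factor of 23.6 in control (geometric mean) and 18.2 in deprived libraries. The log2 ratio of Rragd to Rragc was -4.60, -4.59, -4.46 and -4.58 in control and -4.15, -4.14, -4.22 and -4.25 in deprived libraries, with no overlap. The difference of 0.37 gave p = 0.0286 in a two-sided exact permutation test, the smallest that 4 against 4 libraries allow. After adjustment over the 4 gene pairs compared it was 0.114. With that smallest p, a pair that stands apart alone cannot pass 0.05 after this adjustment.

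Rraga (Entrez 68441, chromosome 4, 86575673 to 86577285, plus strand) encodes RagA. Its level was 68.2, 66.9, 64.4 and 67.2 CPM in control and 72.8, 73.6, 73.8 and 76.4 CPM in deprived libraries, and the groups stood apart. Means (± SD, n = 4) were 66.7 ± 1.596 CPM in control and 74.2 ± 1.571 CPM in deprived libraries, a log2 change of 0.15 (SE 0.036; edgeR adjusted p = 0.00078). Its paralog Rragb was rare, with 38 to 53 counts per library. Rragb went from 2.29 to 1.92 TPM, where Rraga went from 82.7 to 89.9 TPM, and did not pass (log2 change -0.21, interval -0.53 to 0.098, edgeR adjusted p = 0.306).

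The Ragulator, a complex of LAMTOR1 to LAMTOR5, anchors the Rag GTPases to the lysosome. Of the 8 genes listed with it (the 5 Lamtor genes, Rragb, the arginine-responsive transporter gene Slc38a9 and Fnip2), 4 rose, 0 fell and 4 did not pass. The 4 that rose included Fnip2. Over all tested genes 15.9% rose and 17.3% fell. Lamtor4 was at 22.6, 21.8, 23.4 and 22.7 CPM in control and at 26.9, 24.8, 25.7 and 30.1 CPM in deprived libraries (log2 change 0.24, edgeR adjusted p = 0.00072). Lamtor5 (0.14) and Lamtor2 (0.10), named after their values were seen, also rose. These are short transcripts, with effective lengths of 729 (Lamtor4), 736 (Lamtor5) and 423 bases (Lamtor2). After correction for each library's trend with transcript length, Lamtor4 stood at 0.17 (edgeR adjusted p = 0.0103), Lamtor5 at 0.069 (0.154) and Lamtor2 at -0.0040 (0.949). Of these 3 only Lamtor4 still passed. The trend differed between the groups, so its removal may also take out a response to deprivation that runs with length. Lamtor2 also missed the threshold without deprived replicate 4 (0.071, adjusted p = 0.155) and without control replicate 1, 2 or 4 (0.0626 to 0.0747), with DESeq2 (0.0948), without the filter on low counts (0.0742) and on log2(TPM + 1) values (limma, 0.131).

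Flcn encodes folliculin, the GTPase-activating protein of RagC and RagD, and is another reported target of TFEB and TFE3. Its level was 99.9, 102.4, 97.1 and 93.0 CPM in control and 90.6, 88.9, 93.8 and 88.8 CPM in deprived libraries. The groups overlapped in CPM, since control replicate 4 lay below deprived replicate 3. In TPM they stood apart, with the same libraries at 52.92 (control) and 52.27 (deprived). Means (± SD, n = 4) were 98.1 ± 4.01 CPM in control and 90.5 ± 2.37 CPM in deprived libraries, a log2 change of -0.12 (SE 0.035; edgeR adjusted p = 0.0075). Flcn (Entrez 216805) lies on the minus strand of chromosome 11 at 59791408 to 59810039.

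Fnip1 and Fnip2 encode the partners of folliculin. Fnip1 (Entrez 216742, chromosome 11, 54438107 to 54518241, plus strand) was at 117.2, 117.6, 129.0 and 122.7 CPM in control and 131.7, 130.9, 127.6 and 120.3 CPM in deprived libraries. The groups overlapped, and Fnip1 did not pass (log2 change 0.070, interval 0.0013 to 0.14, edgeR adjusted p = 0.111). Leaving out deprived replicate 4 brought it past the threshold (0.098, edgeR adjusted p = 0.0153), and so did leaving out control replicate 3 (0.0985, 0.0311). Fnip2 was at 292.2, 299.4, 307.0 and 297.7 CPM in control and at 331.3, 322.5, 324.2 and 308.3 CPM in deprived libraries, with no overlap. It rose (log2 change 0.10, SE 0.027, edgeR adjusted p = 0.0017). In TPM its groups overlapped, with control replicate 3 at 79.87 and deprived replicate 4 at 76.23. In 4 of the libraries the estimated count of Fnip2 was not a whole number, and the extent of any sharing of reads with other loci was not measured. On log2(TPM + 1) values Fnip2 stood at 0.072 (limma adjusted p = 0.164). It stood at 0.16 after correction for the length trend. In TPM, Fnip2 exceeded Fnip1 by a factor of 1.99 in control and 2.06 in deprived libraries, a log2 difference of 0.046 (exact permutation p = 0.229, adjusted 0.286).

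TFEB and TFE3 bind E-boxes with the letters CACGTG, often preceded by T. Promoters of the 10 genes were searched for CACGTG and for TCACGTG, on both strands. In the 250 bases before each start, Rragc and Fnip1 held CACGTG, and each copy also matched TCACGTG, which overlaps it, on the minus strand. No such match was found in the other 11 of 13 listed promoters of the 10 genes. CACGTG occurred in 6.02% of all 32851 promoter windows of this length and TCACGTG in 3.13%. The capitals mark the E-box, 112 to 107 bases before the start in Rragc (chr4:123917309-123917338) and 75 to 70 bases before it in Fnip1 (chr11:54438092-54438121), both on the plus strand of GRCm38.p6, from RefSeq. In Fnip1 that start is downstream of the first annotated base of the gene, 54438107, which falls within the E-box:

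Rragc: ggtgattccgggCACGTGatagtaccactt

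Fnip1: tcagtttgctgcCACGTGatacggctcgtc

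Neither of the genes with an E-box in this window passed the threshold in the edgeR fit of all 8 libraries. Fnip1 did pass after correction for the length trend (0.12, edgeR adjusted p = 0.0011). It also passed without deprived replicate 4 (0.0153) or control replicate 3 (0.0311). Rragd, the gene with the largest change, had no E-box in this window, and bases further away were not searched. A match is a description of the letters. Binding was not measured in these data.

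Mtor encodes the kinase itself. Its level was 61.0, 59.1, 65.5 and 61.7 CPM in control and 58.6, 58.9, 56.2 and 49.5 CPM in deprived libraries. The groups did not overlap in CPM, although deprived replicates 1 and 2 lay just below the lowest control, and replicate 4 was lowest. In TPM they overlapped, with deprived replicate 2 at 13.09 and control replicate 1 at 13.08. Means (± SD, n = 4) were 61.8 ± 2.68 CPM in control and 55.8 ± 4.37 CPM in deprived libraries, a log2 change of -0.15 (SE 0.046; edgeR adjusted p = 0.0123). Mtor missed the threshold when deprived replicate 4 was left out (-0.0935, edgeR adjusted p = 0.0774), when control replicate 3 was (-0.12, 0.0635), and on log2(TPM + 1) values (-0.17, limma adjusted p = 0.0751). Mtor (Entrez 56717) lies on the plus strand of chromosome 4 at 148448582 to 148557685.

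Rptor encodes Raptor, the scaffold that brings substrates to mTORC1. It was at 77.9, 74.5, 78.0 and 76.1 CPM in control and 79.6, 81.8, 77.6 and 75.4 CPM in deprived libraries, with overlap (log2 change 0.036, interval -0.036 to 0.11, edgeR adjusted p = 0.475). Rptor (Entrez 74370) spans 119602905 to 119899591 on the plus strand of chromosome 11, and an exon of the antisense gene Rptoros, which has no row in the table, overlaps it by 84 bases. Mlst8, a subunit of both mTOR complexes, was at 25.7, 23.8, 21.5 and 22.8 CPM in control and 19.8, 21.8, 19.8 and 22.1 CPM in deprived libraries. It fell (log2 change -0.17, edgeR adjusted p = 0.0232), with overlap between the groups. Mlst8 missed the threshold with DESeq2 (adjusted p = 0.0716), and with edgeR when deprived replicate 1 (0.0818) or 3 (0.0902), or control replicate 1 (0.128) or 2 (0.0539), was left out. Rictor, the scaffold of the other complex, mTORC2, did not pass (-0.082, edgeR adjusted p = 0.165). The log2 ratio of Rptor to Rictor in TPM went from 1.40 ± 0.109 to 1.54 ± 0.035 (SD, n = 4; exact permutation p = 0.0571, adjusted 0.114). Of 5 genes of mTORC1 partners and assembly factors 0 rose and 1 fell, where the 1 was Mlst8. Over all tested genes 33.2% passed with edgeR. Of 4 genes of mTORC2, 0 passed with edgeR or DESeq2, and 0 had an unadjusted edgeR p under 0.05. On log2(TPM + 1) values 1 of them, Prr5, passed (-0.27, limma adjusted p = 0.0157).

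Depdc5 encodes a subunit of GATOR1 that contacts the Rag GTPases, while the catalytic residue acting on RagA and RagB is on another subunit, NPRL2. Its level was 47.6, 46.4, 43.6 and 49.1 CPM in control and 43.3, 42.0, 41.7 and 41.9 CPM in deprived libraries. The groups did not overlap, with 43.6 and 43.3 CPM as the closest values. Means (± SD, n = 4) were 46.7 ± 2.32 CPM in control and 42.2 ± 0.733 CPM in deprived libraries, a log2 change of -0.14 (SE 0.044; edgeR adjusted p = 0.0081), and the change was -0.22 on log2(TPM + 1) values. After correction for the length trend it was -0.096 and did not pass (edgeR adjusted p = 0.0808). Depdc5 (Entrez 277854) lies on the plus strand of chromosome 5 at 32863646 to 32994233. The other GATOR1 subunit genes did not pass: Nprl2 stood at 0.023 (edgeR adjusted p = 0.843), and Nprl3, whose counts had fractions in every library, at -0.026 (0.776). Of 11 genes of these subunits, the GATOR2 complex and the KICSTOR scaffold, 0 passed with edgeR or DESeq2 and 0 had an unadjusted edgeR p under 0.05, with log2 changes between -0.13 and 0.13. The share of all tested genes that passed with edgeR was 33.2%.

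Tfe3 encodes a basic helix-loop-helix factor of the MiT/TFE family, which also holds TFEB, MITF and TFEC. Its level was 216.8, 222.0, 217.1 and 212.7 CPM in control and 199.2, 208.3, 199.0 and 198.2 CPM in deprived libraries. Every deprived library lay below every control, and deprived replicate 2 was above the other 3. Means (± SD, n = 4) were 217.2 ± 3.80 CPM in control and 201.2 ± 4.77 CPM in deprived libraries, a log2 change of -0.11 (SE 0.028; edgeR adjusted p = 0.0014). Tfe3 (Entrez 209446) lies on the plus strand of chromosome X at 7762530 to 7775202.

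Tfeb (Entrez 21425, chromosome 17, 47737037 to 47792416, plus strand) was at 25.9, 29.1, 29.0 and 25.4 CPM in control and 26.0, 26.1, 27.1 and 26.6 CPM in deprived libraries. All 4 deprived values lay within the control range, and Tfeb did not pass (log2 change -0.050, interval -0.16 to 0.059, edgeR adjusted p = 0.522). RefSeq lists 3 promoters for Tfeb and 2 for Tfe3, and counts per gene do not show which was used. Tfe3 exceeded Tfeb in TPM by a factor of 5.55 in control and 5.29 in deprived libraries (log2 difference -0.068, exact permutation p = 0.286, adjusted 0.286). Mitf (0.073, edgeR adjusted p = 0.164) and Tfec (-0.082, 0.691) did not pass. After correction for the length trend Mitf did (0.11, edgeR adjusted p = 0.0244). Mitf stood at 18.6 TPM and Tfec at 3.41 TPM in control, both below Tfeb at 23.8 TPM.

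Among genes that act on these factors, Map4k3, a kinase placed upstream of mTORC1 in amino acid signalling, was at 48.8, 54.9, 53.1 and 50.4 CPM in control and 73.4, 74.0, 75.5 and 70.3 CPM in deprived libraries. It rose 1.42-fold (log2 change 0.50, SE 0.040, edgeR adjusted p = 6.5e-14) with no overlap. Ppp3r1, the regulatory subunit of calcineurin, a phosphatase that acts on TFEB, stood at 353.2 ± 3.13 CPM in control and 296.7 ± 10.6 CPM in deprived libraries (± SD, n = 4), and fell (log2 change -0.25, edgeR adjusted p = 1.6e-10). Of the 8 genes of the MiT/TFE family and its regulators, 3 rose, 2 fell and 3 did not pass. Among all tested genes 15.9% rose and 17.3% fell. Named after their values were seen, the others that passed were Mcoln1, a lysosomal calcium channel gene (0.19, edgeR adjusted p = 0.0041), and the calcineurin catalytic subunit genes Ppp3ca (0.075, 0.0403) and Ppp3cb (-0.11, 0.0124). The groups of Mcoln1 overlapped in CPM, with deprived replicate 1 at 55.0 and control replicate 1 at 56.6. Mcoln1 did not pass on log2(TPM + 1) values (0.15, limma adjusted p = 0.0548). Ppp3ca did not pass with DESeq2 (0.089), without the filter on low counts (0.112), on log2(TPM + 1) values (0.0416, limma adjusted p = 0.413), or without deprived replicate 2, 3 or 4 or control replicate 1, 3 or 4 (up to 0.159).

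**Figure D2:**
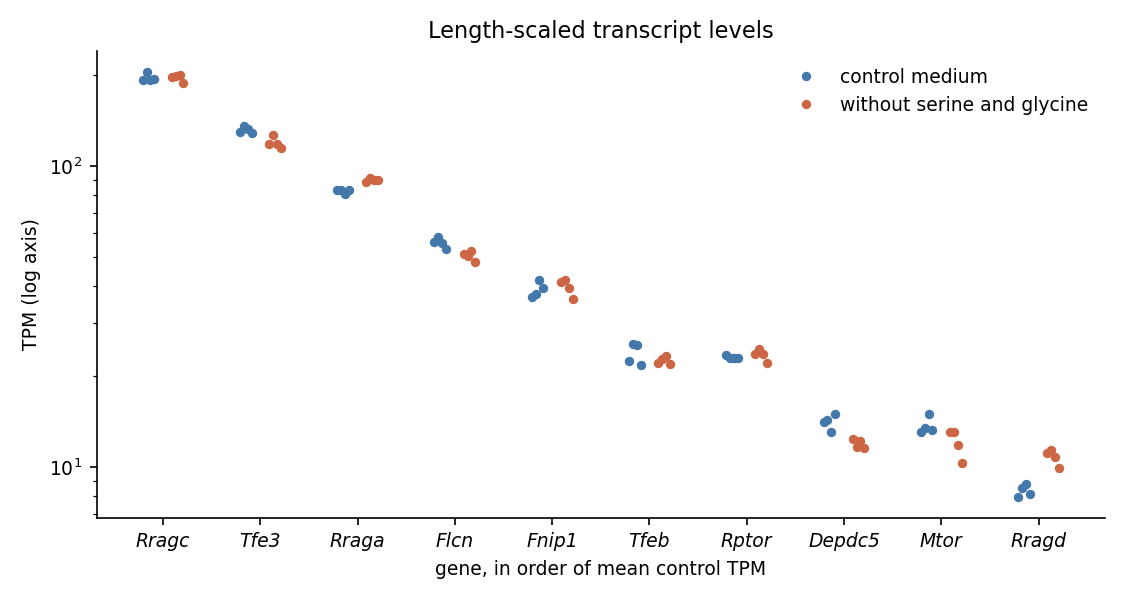
TPM of each gene in each library on a log axis, in order of the mean control level; points are libraries, 4 per group. Rragc is highest at 196.9 TPM and Rragd lowest at 8.37 TPM in control, and the order of the first 5 genes is the same in both groups.

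Per length, the 10 genes spanned a factor of 23.5 in control libraries. Rragc was highest with 196.9 ± 5.71 TPM (SD, n = 4), followed by Tfe3 (132.0 ± 3.22), Rraga (82.7 ± 1.35), Flcn (55.6 ± 2.18) and Fnip1 (38.9 ± 2.23), each without overlap with its neighbours. Tfeb (23.8 ± 1.99 TPM) and Rptor (23.2 ± 0.284) overlapped, as did Depdc5 (14.1 ± 0.80) and Mtor (13.7 ± 0.859). Rragd was lowest, at 8.37 ± 0.379 TPM in control and 10.8 ± 0.621 TPM in deprived libraries. Without serine and glycine the levels of Rragd and Mtor overlapped, which they did not in control.

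Libraries differed in how expression varied with transcript length. The slope of log2 expression on log2 effective length was 0.00274 to 0.0390 in control libraries. In deprived libraries it was -0.0529 to 0.00156, lowest in replicate 4. Every deprived slope thus lay below every control slope. A technical trend and a response to deprivation that runs with length cannot be told apart here, and the correction removes either. The 10 genes differ in length, from 1465 bases for Rraga to 5710 for Fnip1, 5931 for Rptor, 6093 for Depdc5 and 8269 for Mtor. With each library's trend removed, 4 genes rose and 2 fell, in place of 2 and 4. Mtor (-0.080, edgeR adjusted p = 0.106) and Depdc5 (-0.096, 0.0808) then did not pass, and Rptor (0.084, 0.0423) and Fnip1 (0.12, 0.0011) did. Rragd (0.44), Rraga (0.12), Flcn (-0.10) and Tfe3 (-0.10) passed in either fit with the same sign.

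**Figure D3:**
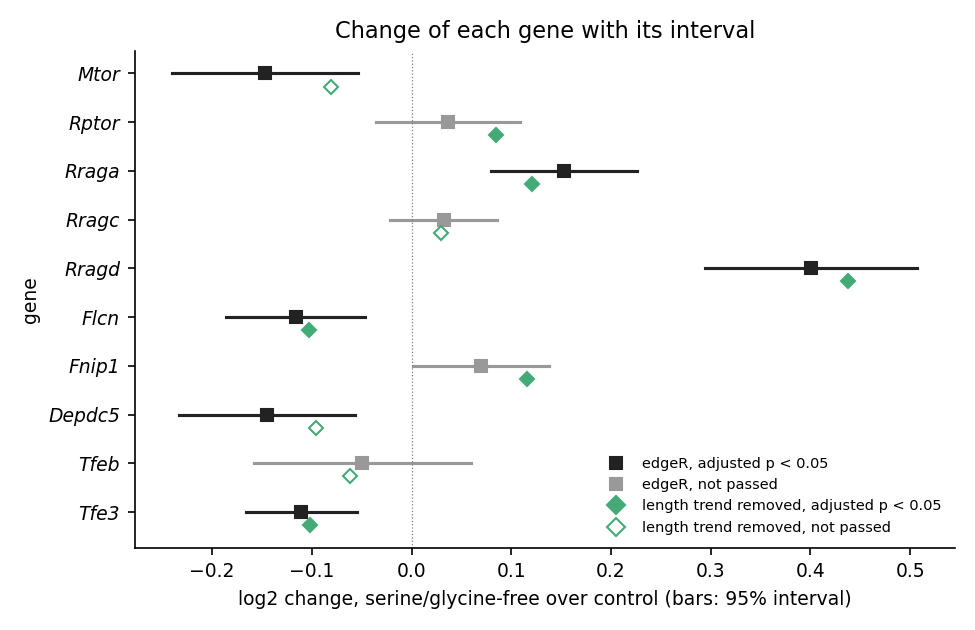
Log2 change of each gene (squares, with 95% intervals) and the same after removal of the length trend (diamonds); filled dark squares and filled diamonds passed an adjusted p of 0.05. Rragd, Rraga, Flcn and Tfe3 pass in either fit, while Mtor and Depdc5 pass only before and Rptor and Fnip1 only after removal.

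The other genes of the pathway were read from lists of its parts, 58 genes of which 57 were tested. Of these, 9 rose, 12 fell and 36 did not pass, a share of 36.8% called against 33.2% of all genes, with a median log2 change of -0.036. The sensors of single amino acids or their products were mostly lower. Of 6, 1 rose, 4 fell and 1 did not pass, where 15.9% of all tested genes rose and 17.3% fell. Bmt2, which encodes the S-adenosylmethionine sensor SAMTOR, was at 160.9, 170.0, 169.0 and 173.5 CPM in control and 135.6, 132.8, 137.5 and 129.5 CPM in deprived libraries (log2 change -0.33, edgeR adjusted p = 3.1e-12). The groups stood well apart. The leucine sensor gene Sesn2 fell from 58.3 ± 0.581 to 47.7 ± 2.41 CPM (SD, n = 4; -0.29, edgeR adjusted p = 1.9e-07). Its paralog Sesn1 fell by 0.21 and Castor2, a relative of the arginine sensor CASTOR1, by 0.24 on the log2 scale. Castor1 was rare, with means of 2.09 CPM in control and 2.86 CPM in deprived libraries, and rose (0.45, edgeR adjusted p = 0.0239, named after its values were seen). Castor1 missed the threshold with DESeq2 (adjusted p = 0.098), and with edgeR without deprived replicate 4 (0.0569) or control replicate 3 (0.085) or 4 (0.0835). Sesn3 did not pass (-0.34, edgeR adjusted p = 0.0906), but did without deprived replicate 1 (0.0494) or control replicate 1 (0.0328).

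Rheb encodes the GTPase that activates mTORC1, and the TSC complex switches it off. Rheb was at 85.4, 84.0, 84.7 and 84.7 CPM in control and 93.8, 91.1, 94.2 and 97.1 CPM in deprived libraries, with no overlap (log2 change 0.15, edgeR adjusted p = 0.00032). Ddit4, whose product REDD1 restrains mTORC1 through the TSC complex, was at 54.0, 57.9, 54.3 and 52.8 CPM in control and 38.2, 39.2, 38.7 and 39.3 CPM in deprived libraries. It fell by 0.49 on the log2 scale (SE 0.042, edgeR adjusted p = 4.5e-13). Of the 7 genes of this group, 1 rose, 1 fell and 5 did not pass, where 33.2% of all tested genes passed.

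Of 8 tested genes of mTORC1 substrates, 0 rose, 4 fell and 4 did not pass. The shares over all tested genes were 15.9% higher and 17.3% lower. Larp1, a repressor of the translation of ribosomal protein transcripts, fell from 241.7 ± 11.1 to 213.4 ± 6.69 CPM (SD, n = 4; -0.18, edgeR adjusted p = 7.9e-06). Eif4ebp2, a translation repressor that mTORC1 inactivates, fell from 171.8 ± 3.46 to 153.4 ± 3.58 CPM (-0.16, edgeR adjusted p = 1.1e-05). The other 2 that fell, named after their values were seen, were Ulk1 (-0.12) and Lpin1 (-0.16). The groups overlapped in CPM for Ulk1 and not for Lpin1. After correction for the length trend Ulk1 (-0.085, edgeR adjusted p = 0.0786) and Lpin1 (-0.11, 0.0622) missed the threshold. So did Ulk1 without deprived replicate 1 (0.0964) or control replicate 3 (0.0924), and Lpin1 without control replicate 1 (0.0548). Rps6kb2, a ribosomal protein S6 kinase gene that had not passed (-0.13, edgeR adjusted p = 0.0763), did so after the length correction (-0.16, 0.0258), without control replicate 4 (0.0447) and on log2(TPM + 1) values (limma, 0.0262).

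**Figure D4:**
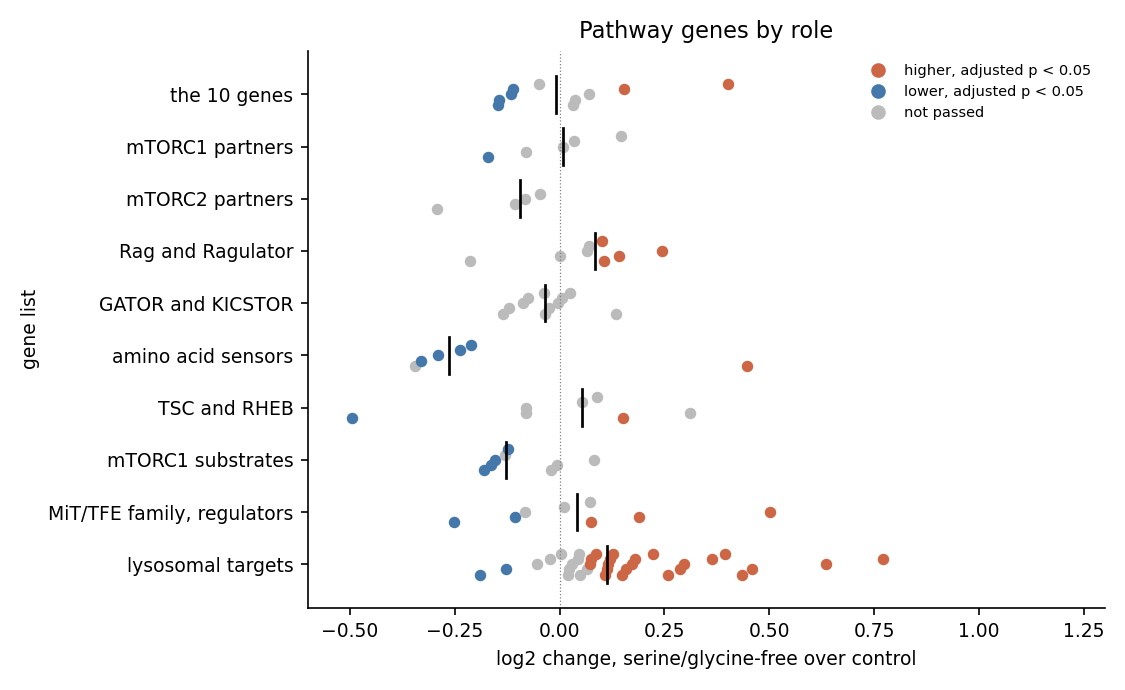
Log2 change of every tested gene of each list (points, coloured by direction where adjusted p was under 0.05; vertical bars are list medians, and height within a row only separates points). The 11 genes in the GATOR and KICSTOR row are all grey, while 22 of 34 lysosomal targets are higher. Depdc5, also a GATOR1 gene, is in the row of the 10 genes and is lower.

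Lysosomal genes reported as targets of TFEB and TFE3 were read as a list of 34, chosen with earlier results of these data known. Of these, 22 rose, 2 fell and 10 did not pass, where 15.9% of all tested genes rose and 17.3% fell. The median log2 change was 0.11, against 0.0074 for all genes. Control means in the list ranged from 7.71 to 8719 CPM, and it was not matched to all genes by level. These counts are thus a description of the list. The 2 that fell, named after their values were seen, were Ctsf (-0.19) and Vps11 (-0.13). The groups overlapped in CPM for Ctsf and not for Vps11. The count that fell was 1 without deprived replicate 1 or 3 or control replicate 1, 2 or 4. Gpnmb, a lysosomal glycoprotein gene, rose from 2407 ± 30.6 to 4107 ± 76.0 CPM (SD, n = 4; 0.77, edgeR adjusted p = 1.1e-29). The protease gene Ctsd rose by 0.36 and the galactosidase gene Gla by 0.46 on the log2 scale. In the same libraries Tfe3 had fallen and Tfeb had not passed. The values are transcript levels and measure neither kinase activity nor the location of TFEB and TFE3.

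**Figure D5:**
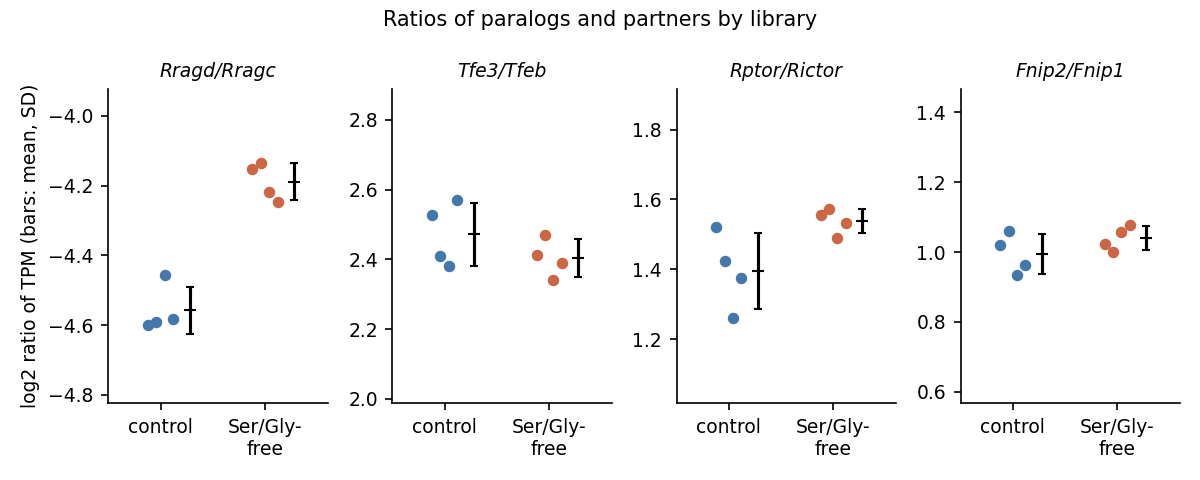
Log2 ratio of TPM per library for 4 pairs of paralogs or partners, with group means and SD beside the points; each panel has its own range of the same width. The groups stand apart only for Rragd over Rragc.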

How the data were processed

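The authors deposited 1 table with estimated counts, FPKM and TPM per gene and library. Per the submitters' processing notes, BWA, Bowtie2, RSEM and the build GRCm38.p6 were used. The tools' versions and settings were not given in the sources used here. Deposited estimated counts, rounded to whole numbers, were the input of the tests. The TPM deposited by the authors gave levels between genes, and FPKM by the authors gave effective lengths. The 6 columns of averages were not used.

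Of 17492 genes, 11700 passed edgeR's filter (minimum count 10, total 15). The comparison used edgeR 4.0.16 under R 4.3.3 (TMM, robust quasi-likelihood F test, Benjamini-Hochberg over all tested genes, 4 against 4 libraries). SE derives from the F statistic. Ratios of TPM were tested by exact permutation over 70 splits. Promoters (250 bases) and coordinates are RefSeq's on GRCm38.p6. Strands of the genes and overlaps with exons of other genes were read from the GENCODE annotation. The overlapping genes were looked up in the deposited table by symbol. The edgeR comparison was tested on simulated counts, and the other steps were not. Apart from Rragd, the 10 genes changed less than the smallest change simulated. Protein sequences were not analysed here.

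The 10 genes and all lists were chosen with earlier results of these data known. Named genes were the 10, 8 set paralogs and partners, up to 12 pathway genes with the smallest adjusted p and no overlap, and the 4 lysosomal targets with the smallest adjusted p, of which 1 is not reported here. Others are marked where they appear, except the cell type markers and Prr5, Sesn3 and Rps6kb2. These 3 were also named after their values were seen. The alternatives were RLE or library-size scaling, no filter on low counts, a stricter filter at 5 CPM on average, a replicate block, DESeq2 1.42.0, limma-voom and limma 3.58.1 on log2(TPM + 1), an adjusted p under 0.01, removal of the length trend, other pseudocounts and leaving out each library.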

Additional observations from a re-analysis of the deposited data

Results flagged for a closer look

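In Tfe3, deprived replicate 2, at 208.3 CPM, lay far from the other 3 deprived libraries (199.2, 199.0 and 198.2 CPM). It was the only such value in the 20 groups of 4 libraries screened for the 10 genes, where chance gives about 1 in 20. It lay on the side of the controls, all of which were higher.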

How the results depend on the processing

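All 10 genes kept the sign of their change under each of the 18 alternatives. The calls of Rragd, Rraga, Flcn and Tfe3 held under all of them. After correction for the length trend, 4 of the 10 genes rose and 2 fell, and Lamtor2 changed sign to -0.0040 (for Lamtor2 the cause was not tested). Mtor also missed an adjusted p of 0.01 (0.0123) and the threshold on log2(TPM + 1) (-0.17, adjusted p = 0.0751). On log2(TPM + 1), 5 in place of 9 pathway genes rose. The number of lysosomal targets that fell was 1 with DESeq2 and at an adjusted p of 0.01, and 1 to 2 when a library was left out, against 2; the cause was not tested. In the 100 bases before the start, 1 gene (Fnip1) in place of 2 held CACGTG. Same-numbered libraries did not deviate together (correlations -0.0943 to 0.0609, and 1 of 4 deprived libraries correlated best with its own number). With the replicate block, 3655 in place of 3882 genes passed, and still 2 of the 10 genes rose and 4 fell. Of the pathway genes 7 in place of 9 then rose, since Lamtor2 (adjusted p = 0.0576) and Ppp3ca (0.0801) missed the threshold. The exact sign-flip test of the ratios over 4 pairs cannot go below p = 0.125. DESeq2 called 3061 genes. Rare genes such as Rragb (38 to 53 counts) and Castor1 are limited by depth.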
